A study of Mus musculus with 2 samples.

Results

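The genes described here are 10 components and targets of the Wnt and beta-catenin pathway in mouse embryonic stem cells (mESCs) depleted of USP21, a deubiquitinase that removes ubiquitin from other proteins. They were picked by symbol, namely Ctnnb1, Axin2, Lef1, Tcf7, Tcf7l1, Tcf7l2, Sp5, Dkk1, Nkd1 and Lgr5, and all 10 were found among the 23889 gene symbols of the deposited expression files. E14, a feeder-free mESC line that the labels trace to a 19/Ola mouse, was cultured on gelatin in medium with 15% FBS and 1000 U per ml LIF. No Wnt ligand or GSK3 inhibitor is named in that medium. Of the 2 libraries, shCon came from cells transfected with a control shRNA (genotype label Normal) and shUSP21 from cells transfected with an USP21 shRNA (genotype label USP21 knockdown), both harvested after 3 days of knockdown. Which of the USP21 shRNAs was used is not given in the labels, and neither group has replicates, so no difference below could be set against a replicate error and no p-value is given.

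In Wnt signalling, a secreted Wnt ligand binds a Frizzled receptor with its co-receptor Lrp5 or Lrp6, which stops the Axin, Apc and Gsk3 destruction complex from marking beta-catenin for degradation. Beta-catenin then enters the nucleus and joins TCF/LEF factors on target genes, several of which encode inhibitors that feed back on the pathway. In mESCs, Tcf7l1 is best known as a repressor that restrains pluripotency genes, and beta-catenin relieves this repression, while beta-catenin also holds cells together at cadherin junctions.

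Expression is given as FPKM (fragments per kilobase of gene model, scaled to the mapped fragments of the library), which is scaled by length and can be compared between genes. Differences are given as the log2 ratio of shUSP21 over shCon after adding 0.1 to each FPKM. This pseudocount makes changes of low genes look smaller. Genes are called expressed where either library reached an FPKM of 0.1. Usp21, the targeted gene, was at 26.2 in shCon and 3.49 in shUSP21, a log2 ratio of -2.87.

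The libraries summed to FPKM totals of 613617 and 543206. The files hold no counts, but the low values moved in steps of single fragments, which put shCon at 1.23 times the depth of shUSP21 (from 1439 genes below 0.1 but not at 0). All 9 mESC markers were present, at 85.0 to 1849 in shCon and 76.5 to 1285 in shUSP21, with sums of 4563 and 3522. Marker sums of other cell types went from 20.7 to 10.3 for fibroblasts, of which Thy1 alone held 17.3 and 5.29, from 47.7 to 39.8 for primitive endoderm, from 9.97 to 14.2 for trophectoderm, from 3.13 to 3.64 for primitive streak and mesoderm, and from 7.86 to 10.8 for neuroectoderm. The numbers of these markers that reached an FPKM of 1 in either library were 2 of 8, 6 of 6, 3 of 5, 2 of 6 and 2 of 5. In the same order, 4 of 8, 2 of 6, 4 of 5, 4 of 6 and 5 of 5 were higher in shUSP21. Among the 9 mESC markers 1 was higher. Single genes also held much of other sums, namely Tfap2c (8.83 and 11.4) for trophectoderm and Sox1 (6.08 and 8.30) for neuroectoderm. For primitive endoderm, Dab2 held 23.1 and 16.4, and for mESCs Dppa5a held 1849 and 1285. The log2 ratios of Dppa5a and Nanog were -0.52 and -0.86, while those of the remaining mESC markers ran from -0.30 to 0.079. Of the fibroblast markers, Lum was at 0 in both libraries. The part of these markers in the results below was not tested, and in bulk RNA fewer cells of a type cannot be told apart from less RNA per cell. Over 11378 genes that reached an FPKM of 1 and had a known transcript length, sorted by length into 4 equal groups, the median log2 ratio was -0.15 for the shortest transcripts and 0.16 for the longest.

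None of the 7 members that reached an FPKM of 1 in either library differed by 2-fold, and Sp5, far below that level, was the one expressed member whose plain FPKM ratio, 0.278, went beyond 2-fold. Of the 10 members 9 were expressed, Lgr5 being the exception, and 0 of these passed 2-fold, which here means a log2 ratio at or beyond 1 or -1 in a gene that reached an FPKM of 1. Lef1 and Sp5 did not reach that floor and could not be counted. Over all 15316 expressed genes, 516 (3.37%) passed 2-fold, 274 (1.79%) higher and 242 (1.58%) lower in shUSP21. Of the 9 members 4 had a ratio above 0 and 5 below 0. The median was -0.14, beside a median of 0.0046 over all 15316 genes. The lowest value was -0.94 for Sp5 and the highest 0.508 for Tcf7l2, just above Nkd1 at 0.505. With the libraries rescaled to equal FPKM sums, 5 members were above 0 and 4 below, with a median of 0.034. The members spanned the whole range of levels, from Ctnnb1, with only 1.03% of all symbols at a higher mean FPKM, to Lgr5 near 0. Their order of level was the same in both libraries except that Tcf7l1 and Tcf7, next to each other, changed places. With 1 library per group, it could not be said which neighbours in this order differ beyond their spread.

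**Figure D1:**
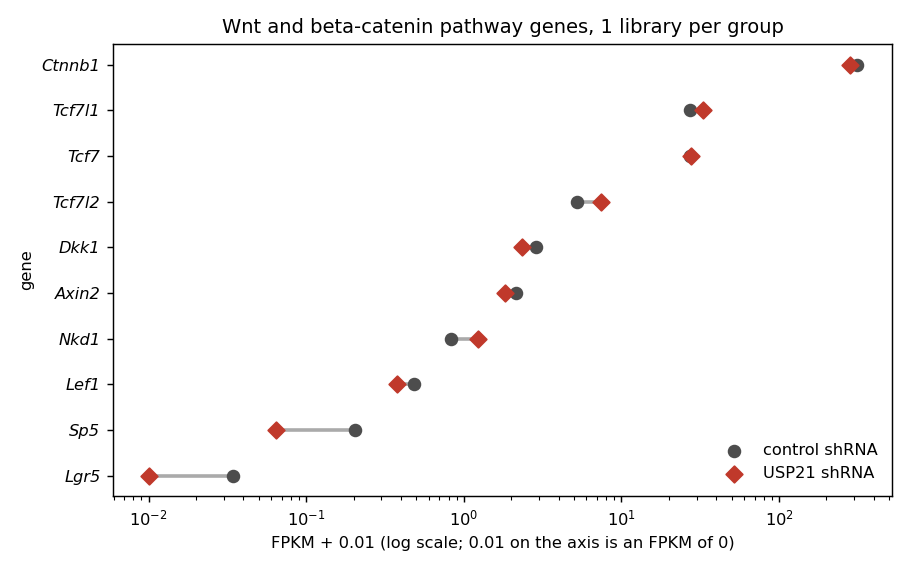
FPKM + 0.01 (log scale) of the 10 genes in shCon (grey circles) and shUSP21 (red diamonds), 1 library per group, with a grey line joining the values of a gene. Ctnnb1 stands at 312 and 283, Lgr5 at 0.024 and 0, and the widest gap among genes above 0 in both libraries is that of Sp5.

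Sp5 encodes a zinc-finger transcription factor that is a direct Wnt target in many tissues. Its upstream sequence is shown because it was the only member whose promoter window held the TCF/LEF core motif searched for, and because it also had the lowest log2 ratio of the members. The 250 bases before its start site (RefSeq, GRCm38.p6, chr2:70474673-70474922, plus strand, 5′ to 3′) read as follows, with the match in capitals.

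Sp5: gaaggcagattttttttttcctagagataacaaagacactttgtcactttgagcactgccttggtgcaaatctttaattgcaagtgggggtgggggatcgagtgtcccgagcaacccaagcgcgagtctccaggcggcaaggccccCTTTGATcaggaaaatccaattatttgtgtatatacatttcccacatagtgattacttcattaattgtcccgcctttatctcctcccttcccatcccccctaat

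The letters searched were ATCAAAG on either strand, so that CTTTGAT is the match read from the other strand. Its first base lies 104 bases before the start site. Promoter windows of 300 bases (250 before and 50 after a start site) were found for 9 of the 10 members, 15 windows in all, and Lgr5 was not matched. The motif was in 1 of these 15 windows and in 3.73% of all 32851 windows in the table. The match is a description of the letters, and no match in the other windows says nothing about sites elsewhere. Other forms of the motif were not searched for, in the windows or in the sequence shown.

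Beta-catenin RNA was abundant and little different. Ctnnb1, which encodes beta-catenin, had an FPKM of 312 in shCon and 283 in shUSP21, a change of -9.36% and a log2 ratio of -0.14. Genes at this level were mostly lower in shUSP21, the median log2 ratio of the 897 genes with a mean FPKM of at least 100 being -0.18. Of these genes 58.2% had a ratio at or below that of Ctnnb1, which therefore stood near their middle. When the libraries were rescaled to equal FPKM sums, the log2 ratio of Ctnnb1 turned to 0.034, so its direction depends on the scaling. In the annotation 14.6% of the exon bases of Ctnnb1 are also covered by exons of genes on the opposite strand, one of them Ulk4, and whether the reads were counted by strand is not stated.

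The partners of beta-catenin at cell junctions were measured beside it. Jup (plakoglobin, its close relative) had 63.9 and 66.4, and Ctnna1 (alpha-catenin, the link to actin) had 193.3 and 193.9, with log2 ratios of 0.055 and 0.0048. Of the 6 junction genes expressed, 5 had a ratio above 0 and Ctnnb1 was the one below it, though not with equal sums, and none passed 2-fold. Cdh1 (E-cadherin), outside the naming rule and picked after its values were seen, was at 40.7 and 60.4 with a log2 ratio of 0.57, the highest of this list.

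The 4 TCF/LEF factors bind DNA on behalf of beta-catenin and were present at very different levels. Tcf7 (TCF1, mostly an activator partner of beta-catenin) had an FPKM of 27.3 in shCon and 27.6 in shUSP21, a log2 ratio of 0.018. Tcf7l1 (often called TCF3, the repressor named above) had 27.1 and 32.7, a log2 ratio of 0.27. In the deposited FPKM Tcf7 was thus level between the libraries, while Tcf7l1 was 20.9% higher in shUSP21. With equal sums their log2 ratios were 0.19 and 0.45, so whether Tcf7 is level depends on the scaling. Among the 5670 genes with a mean FPKM from 10 to below 100, 16.3% had a ratio at least as high as that of Tcf7l1.

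Tcf7l2 (TCF4), a factor that can activate or repress, had 5.19 in shCon and 7.43 in shUSP21. It was 43.1% higher, a log2 ratio of 0.508, the highest of the 9 members with the pseudocount of 0.1. Nkd1 was close behind at 0.505, and with equal sums it was the higher, at 0.692 against 0.686 for Tcf7l2. Without a pseudocount Nkd1 was also the higher, at 47.0% against 43.1%. With a pseudocount of 1 it was the lower, at 0.28 against 0.44. Of the 5075 genes with a mean FPKM from 1 to below 10, 14.7% had a ratio at least as high as that of Tcf7l2. Lef1, an activator with low expression in mESCs, had 0.471 and 0.366, a log2 ratio of -0.29, and 31.1% of the 3246 genes with a mean FPKM from 0.1 to below 1 had a ratio as low or lower. Lef1 thus lay well inside the spread of ratios at its level. In Lef1, 13.7% of the exon bases are covered by a gene on the opposite strand.

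The make-up of the TCF/LEF family was similar in both libraries. The summed FPKM was 60.0 in shCon and 68.1 in shUSP21. Tcf7 made up 45.5% and 40.5% of the sum, Tcf7l1 45.1% and 48.0%, Tcf7l2 8.65% and 10.9%, and Lef1 0.785% and 0.538%. Tcf7l1 and Tcf7 together thus held most of the family's RNA in either library. The ratio of Tcf7l1 to Tcf7, which no scaling of a whole library can move, was 0.992 in shCon and 1.18 in shUSP21.

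The 6 expressed members that are Wnt target genes kept the sign of their log2 ratio under each scaling tried, but not its size. Axin2, Dkk1, Lef1 and Sp5 were lower in shUSP21 and Nkd1 and Tcf7 higher, Tcf7 by only 1.27%. With equal sums the log2 ratios were -0.060 for Axin2, -0.10 for Dkk1, -0.16 for Lef1 and -1.06 for Sp5. Those of Nkd1 and Tcf7 were then 0.69 and 0.19. Axin2, a scaffold of the destruction complex and one of the most general Wnt targets, had an FPKM of 2.14 in shCon and 1.82 in shUSP21, a log2 ratio of -0.23. Dkk1, a secreted inhibitor that binds Lrp5 and Lrp6, had 2.84 and 2.34, a log2 ratio of -0.27. Both were lower by a small amount, and 23.8% and 20.6% of the 5075 genes with a mean FPKM from 1 to below 10 had ratios at or below theirs.

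Nkd1, an inhibitor that binds Dishevelled, went the other way, with an FPKM of 0.825 and 1.21 and a log2 ratio of 0.51. Of the 5075 genes with a mean FPKM from 1 to below 10, 14.9% had a ratio at least as high. Nkd1, with a mean of 1.02, stood at the lower edge of that range. The quartiles of the ratios were -0.21 and 0.34 there, but -0.40 and 0.43 for genes from 0.1 to below 1. Lef1 and Tcf7 are target genes as well as factors, and their values stand above. Among the 3 target genes that encode feedback inhibitors, Axin2, Dkk1 and Nkd1, the direction was therefore not shared.

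Sp5 was at 0.195 in shCon and 0.0544 in shUSP21. Without a pseudocount this is a ratio of 0.278, a change of -72.2%, while the log2 ratio with the pseudocount of 0.1 was -0.94. Its low level left few fragments behind these values. From the transcript length of 2100 bases and the step of single fragments in low genes, it was estimated at about 12.7 fragments in shCon and 2.8 in shUSP21. Of the 3246 genes with a mean FPKM from 0.1 to below 1, 7.15% had a log2 ratio at or below that of Sp5. Its log2 ratio ran from -0.18 with a pseudocount of 1 to -1.67 with 0.01. The 31-base words of its transcript were shared with Sp9, a paralog, to 3.96%.

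Lgr5, a receptor for R-spondins and a marker of Wnt-dependent adult stem cells, was near the limit of these libraries. It had an FPKM of 0.0244 in shCon, about 3.5 fragments by the same estimate, and was listed at 0 in shUSP21. No fold is given for it. Lgr4, the related receptor, was present at 15.1 and 12.5.

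**Figure D2:**
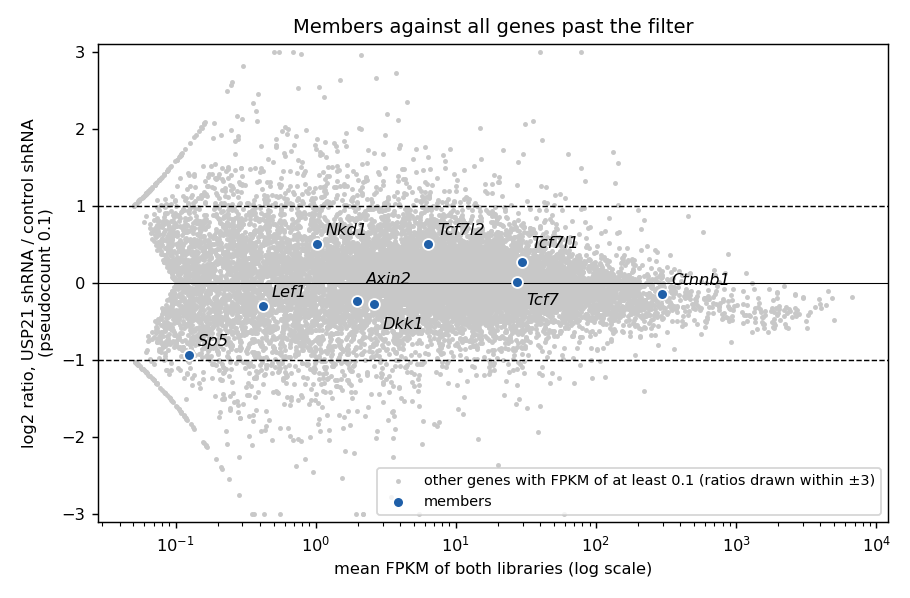
Log2 ratio (pseudocount 0.1) against the mean FPKM of both libraries (log scale) for the 9 expressed members (blue, named) and the other expressed genes (grey, ratios drawn within ±3). Dashed lines mark a 2-fold difference, and all 9 members lie between them, Sp5 nearest to the lower line.

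The rest of the pathway was described with 11 lists of genes by role, which with the members held 141 genes, 124 of them expressed. Of the 124, 3 (2.42%) passed 2-fold, set beside 3.37% of all genes, and 74 (59.7%) had a ratio above 0 and 50 below 0, set beside 7732 (50.5%) of the 15316 expressed genes above 0. The median log2 ratio was 0.084, and with equal sums 85 of the 124 (68.5%) and 10421 of all expressed genes (68.0%) were above 0. The 3 genes were Amer1, Fzd2 and Wnt11. Wnt11, at 1.22 in shCon and 0.536 in shUSP21, reached an FPKM of 1 only in the library where it was higher. Its log2 ratio of -1.05 lay close to the limit. Lgr6 (-1.16), Sost (1.58) and Tle2 (1.12), named after their values were seen, also had log2 ratios beyond 1 or -1. They did not reach an FPKM of 1 and were not counted. The lists below are given by their counts and named genes with no test.

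Of the ligands, 14 of 19 Wnt genes were expressed, 9 of them higher and 5 lower, and 5 reached an FPKM of 1. By the mean of both libraries Wnt6 led, at 12.9 and 12.4, followed by Wnt10a at 1.69 and 1.29 and Wnt9a at 1.59 and 1.37. Wnt11, which acts mainly without beta-catenin, was at 1.22 and 0.536, a log2 ratio of -1.05. Wnt3a, the ligand most used to activate the pathway in culture (chosen after its values were seen), was low, at 0.276 and 0.312. Porcn and Wls, which attach the lipid to Wnt proteins and carry them to the surface, were at 13.3 and 13.7 and at 4.69 and 5.11.

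Of the 15 receptors and co-receptors, 8 were higher and 7 lower in shUSP21, with a median log2 ratio of 0.19. The most abundant by the mean of both libraries were Fzd5 (27.3 and 31.1), Lrp5 (23.6 and 19.3) and Ryk (20.9 and 18.6). Fzd2 had 2.72 and 6.15, a log2 ratio of 1.15. Fzd7, a Frizzled receptor related to Fzd2 and just inside the 2-fold line (named after its values were seen), had 10.2 and 19.6, a log2 ratio of 0.94. Lrp6, also named after its values were seen, was at 15.2 and 21.0, above Lrp5 and Ryk in shUSP21, as was Fzd7.

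In the list of R-spondins, Lgr receptors and the ligases that remove Frizzled, 6 of 9 genes were expressed and none passed 2-fold. Znrf3, such a ligase, was at 5.55 and 7.04, and Rspo1 was at 1.37 and 1.29. Of the secreted inhibitors, 11 of 17 were expressed, 8 of them lower and 3 higher, with a median log2 ratio of -0.30. The most abundant by that mean were Sfrp1 (34.1 and 24.5), Notum (23.2 and 16.9) and Sfrp2 (17.8 and 14.1). All 3 were lower in shUSP21, as was Dkk1, yet none passed 2-fold. Of all expressed genes 49.5% were lower. With equal sums 8 of the 11 were lower, beside 32.0% of all expressed genes.

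In the cytoplasm, the Dishevelled genes Dvl2 (47.3 and 49.8), Dvl3 (17.3 and 17.7) and Dvl1 (11.3 and 14.1), which relay the signal from Frizzled, had log2 ratios of 0.074, 0.031 and 0.32. With their antagonists, 4 of 8 genes were higher, among them Nkd1, and 4 lower. Of the 21 genes of the destruction complex and its turnover, 14 were higher and 7 lower, with a median log2 ratio of 0.087. Csnk1a1, the kinase that primes beta-catenin for Gsk3, was at 111.6 and 123.9, Csnk1d at 70.1 and 84.7, and Tnks2, which marks Axin for degradation, at 61.1 and 59.2. Amer1, which brings Apc to the membrane, had 1.24 and 3.37, a log2 ratio of 1.37. Axin1, the broadly expressed counterpart of Axin2 and added after its values were seen, had 19.6 and 20.7.

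Of the 22 nuclear co-factors, 14 were higher and 8 lower, with a median log2 ratio of 0.18 and none past 2-fold. Aes, a short protein of the Groucho family, was at 152.3 and 187.3, Ruvbl1 at 98.6 and 97.1, and Ctbp2, a co-repressor, at 76.8 and 88.5.

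Of the 26 target genes, 23 were expressed, 13 of them higher and 10 lower, with a median log2 ratio of 0.084 and none past 2-fold. The most abundant besides Tcf7 were Ccnd1 (cyclin D1), at 59.3 and 48.3, and Myc, at 26.7 and 22.8, both of which also answer to other signals. The primitive streak targets T (Brachyury) and Mixl1, added after their values were seen, were low, at 0.0931 and 0.211 and at 1.06 and 0.613, and lay on opposite sides of 0.

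**Figure D3:**
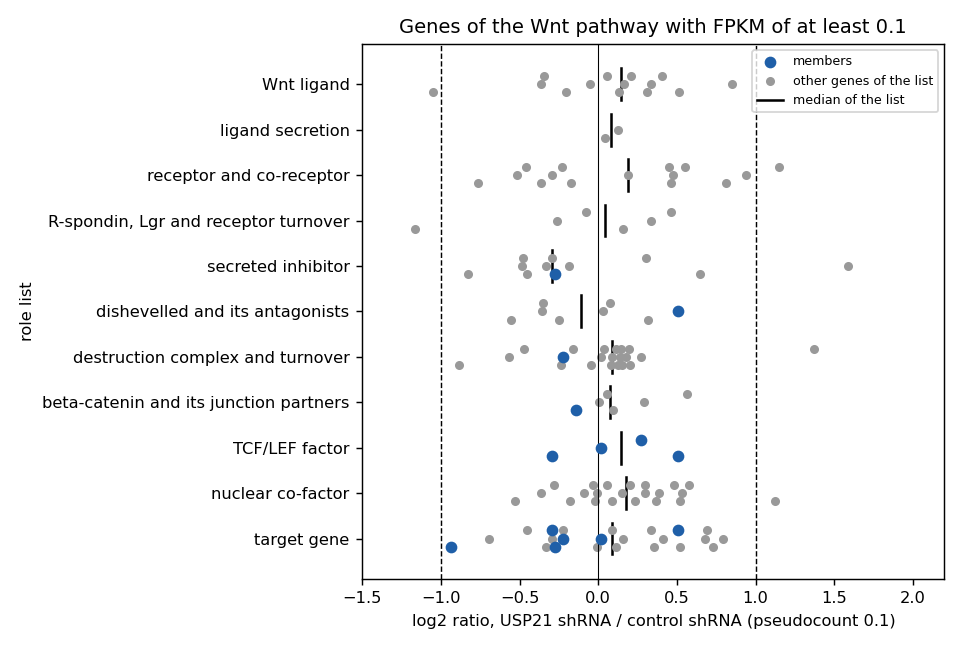
Log2 ratio (pseudocount 0.1) of each expressed gene of the Wnt role lists, 1 row per list, with members in blue, other genes in grey, a black bar at the list's median and dashed lines at a 2-fold difference. The secreted inhibitors have the lowest median, -0.30, and the receptors and co-receptors the highest, 0.19. Lgr6, Sost and Tle2 lie beyond the dashed lines but did not reach an FPKM of 1 and are not counted as past 2-fold.

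**Figure D4:**
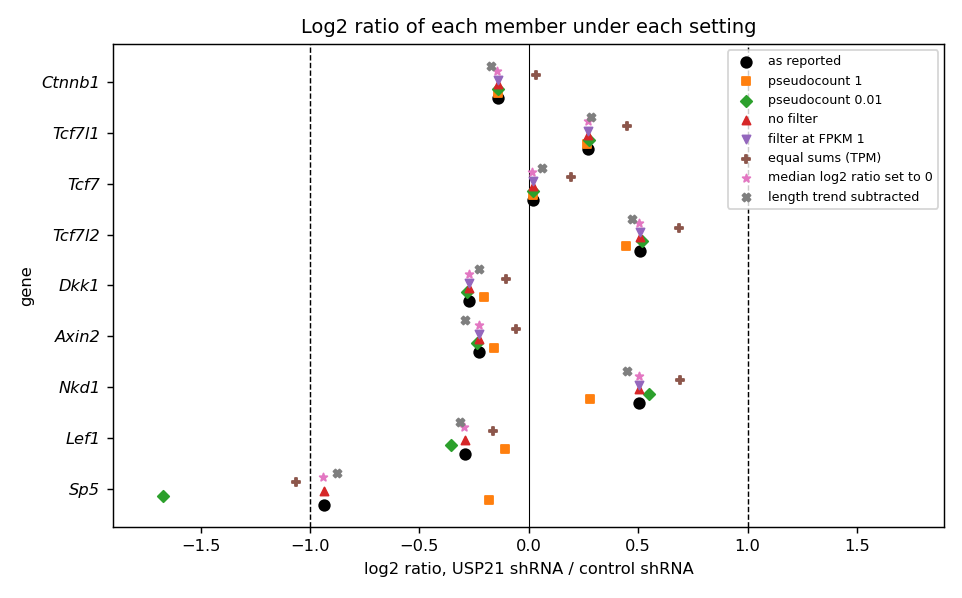
Log2 ratio of the 9 expressed members as reported (black) and under each of 7 other settings (6 for Lef1 and Sp5, which a filter at FPKM 1 drops), with dashed lines at a 2-fold difference. Sp5 moves most, from -1.67 to -0.18, and Ctnnb1 is the one gene that crosses 0, under equal sums.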

How the data were processed

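For each of 2 libraries the authors deposited FPKM values, 1 for every gene symbol. The submitters' processing notes name CASAVA 1.8.2, TopHat2 2.0.14, Cufflinks 2.2.1 and build mm9, with no role given. The gene annotation, the strand setting and any scaling beyond FPKM are not given in the sources used here. Log2 ratios used a pseudocount of 0.1 and were summarised over genes that reached an FPKM of 0.1 in either library. A count at 2-fold also needed an FPKM of 1 in either. With 1 library per group no test was run. The files hold no counts, and since the fragment numbers are estimates, no interval is given. Fragments were estimated from FPKM times transcript length over the most common such product in low genes. Transcript lengths, exon overlap and 31-base words came from GENCODE M21 (GRCm38), and 95.4% of genes reaching an FPKM of 1 had a length. The build differs from that of the files, so no gene positions are given. The promoter sequences and the position of the one printed are those of RefSeq (GRCm38.p6).

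The members and lists were chosen with earlier results of these data known. Named genes are the members, Usp21, the 3 highest of each list and those past 2-fold, besides those said to be chosen later. The counting step was tested on simulated data. The alternatives tried were another pseudocount (1 or 0.01), dropping the filter or raising it to 1, equal sums (TPM), a median of 0, a lowess (span 0.3) for length, a 1.5-fold limit and no FPKM floor. Python 3.11.15, numpy 2.4.6, pandas 2.3.3, statsmodels 0.14.6 and matplotlib 3.10.9 were used.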

Additional observations from a re-analysis of the deposited data

How the results depend on the processing

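No paired analysis was possible because each group has 1 library, and for the same reason no library could be left out. The count of members past 2-fold was 0 under each alternative that changed 1 choice, but the FPKM floor keeps Lef1 and Sp5 out of this count in all of them except the one without it. In settings added after seeing the data that drop the floor together with a pseudocount of 0.01 or with equal sums, Sp5 passed, a count of 1 in both, and 11 and 9 pathway genes passed (as did 1532 of 15316 and 1537 of 16135 genes in all). The members' median log2 ratio of -0.14 turned to 0.018 with a filter at FPKM 1 and to 0.034 with equal sums. That filter drops Lef1 and Sp5, and it keeps Nkd1 only through shUSP21, at 1.21 against 0.825 in shCon. Of the members' own ratios, the one that changed sign was that of Ctnnb1 (0.034 with equal sums). The count of pathway genes past 2-fold, 3 as reported, was 0 with a pseudocount of 1 and 5 with equal sums. It was 6 without the FPKM floor (where 6.4% of all genes passed) and 9 at 1.5-fold (where 11.1% did). The genes counted need not be the same under each setting. The median of the pathway genes was 0.26 with equal sums, which moved the median of all genes with FPKM of at least 1 to 0.18. A value was taken as moved when it shifted by 0.1 or more. The low levels of Sp5 and Lgr5 leave few fragments behind their values, and with no replicates differences between the libraries cannot be separated from those between cultures.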
